A study of Mus musculus with 6 samples.

Results

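The genes studied were those encoding the nuclear subunits of oxidative phosphorylation, in cultured myoblasts (muscle precursor cells) of the mouse line C2C12. A gene was a member when a probe set of the array named it alone and its symbol began with Nduf (complex I, assembly factors left out), was Sdha to Sdhd (complex II), began with Uqcr or was Cyc1 (complex III), began with Cox4 to Cox8 (complex IV) or began with Atp5 (complex V, Atp5s and Atp5sl left out). This gave 83 of the 18193 genes named from such probe sets, namely 36 for complex I, 4 for complex II, 9 for complex III, 17 for complex IV and 17 for complex V. Each gene was represented by its brightest probe set.

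All 6 cultures carried a tetracycline-inducible integrin alpha7 construct and were kept undifferentiated for 36 h in growth medium. The noninduced group (3 arrays) had no tetracycline and the induced group (3 arrays) had 1 µg/ml tetracycline, and the series describes the samples of each group as biological triplicates. The question was how raised integrin alpha7, a laminin receptor subunit of muscle, affects transcription in myoblasts. The labels do not say whether the cells were 1 clone or a pool, which species the construct came from, or whether tetracycline was also given to cells without it. An effect of tetracycline itself and of the construct cannot be told apart in these groups.

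Oxidative phosphorylation is the last stage of respiration in the inner mitochondrial membrane. Complexes I and II pass electrons from NADH and succinate to coenzyme Q, complex III passes them to cytochrome c, and complex IV passes them to oxygen. Complexes I, III and IV pump protons, and complex V, the ATP synthase, uses the returning protons to make ATP. Most subunits are encoded in the nucleus and are imported, and muscle cells raise their respiratory capacity when they differentiate into myotubes.

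Each array gave 1 linear signal per probe set, scaled by the submitters' software. The median signal was 24.9, 27.7 and 25.8 on the noninduced arrays and 24.8, 22.8 and 22.9 on those labelled induced. The groups did not overlap in this median, and precision is limited by having 3 per group. Fluidics runs were inferred from a gap between the hybridisation times in the instrument records, and no label names them. By this inference the noninduced arrays and induced replicate 1 shared a run, and induced replicates 2 and 3 were in a second run. Itga7, the target, gave 811, 778 and 786 on noninduced arrays 1 to 3 and 675, 727 and 676 on those labelled induced. The arrays labelled induced were therefore not higher, and every direction given here rests on those labels (log2 difference -0.19, SE 0.058, limma adjusted p = 0.181). The construct's species and extent are not given in the labels, so this probe set may not detect it. The labelled cell type was checked against markers. All 6 myoblast markers, among them Myod1, Myf5 and Des, lay above the signal filter, as did 3 of 8 markers of differentiated myotubes, 2 of 4 of leukocytes, 1 of 3 of endothelium, 0 of 2 of adipocytes and 1 of 3 of epithelium. Mean signals of the myoblast markers, which include Itga7 and Vim, ran from 699 to 13892. Above the filter of 23.4, myotube markers ran from 37.9 to 176. Leukocyte, endothelial and epithelial markers above it ran from 23.9 to 46.3.

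No subunit gene differed between the groups past the test over all probe sets. A total of 77 of the 83 members had a mean signal above the median of all probe sets and were tested, 34 in complex I, 4 in II, 9 in III, 13 in IV and 17 in V. At a limma adjusted p under 0.05, 0 of the 77 were called, where 0.200% of the 22518 probe sets tested were called. At an unadjusted p under 0.05, the arrays labelled induced were higher in 6 members and lower in 5. These are 7.79% and 6.49% of the members, beside 7.43% and 7.26% of all probe sets tested. The split depended on the scaling, with 15 higher and 1 lower after median centring and 6 higher and 11 lower after quantile normalization. Centring adds a constant to every probe set. It took the share of all probe sets tested with a negative difference from 52.6% to 30.5%. Leaving out single arrays moved the counts on the deposited scale. The 6 higher became 3 without noninduced replicate 2 and 2 without induced replicate 1 or 2. The 5 lower became 3 when noninduced replicate 1 was left out, 9 when noninduced replicate 3 was and 16 when induced replicate 3 was. The share of all probe sets called is given only for all 6 arrays on the deposited scale. Counts from the other fits therefore have no background beside them. Groups did not overlap in 4 members that were higher (5.19%, against 9.65% of all tested) and in 13 that were lower (16.9%, against 10.6%). Most subunit probe sets were bright, and bright probe sets vary less between arrays. Among the 1382 genes with a mean signal above 1000, 12.8% were higher and 11.9% lower at an unadjusted p under 0.05, against 8.70% and 5.80% of the 69 members above 1000. Groups did not overlap in 14.6% (higher) and 17.4% (lower) of these genes, against 5.80% and 15.9% of these members.

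The sizes of the differences were small on the deposited scale. In 74 of the 77 members the log2 difference (induced minus noninduced, on log2 of signal + 16) was under 0.2 in either direction. The share of all probe sets under this limit is not given. After median centring other members passed it, for example Atp5o at 0.29 and Ndufa2 at 0.24, while Atp5d came under it at -0.13. The 95% interval of the difference lay within 1.25-fold both ways in 70 members and within 1.5-fold in 75. Larger differences were outside the interval for those genes on this scale. The intervals do not cover the choice of scaling. Over all probe sets tested these shares were 37.7% and 79.5%. Among the genes above 1000 they were 91.4% and 99.6%, and among the members above 1000 they were 97.1% and 100%. The SD of the log2 difference was 0.0813 over the members above 1000 and 0.113 over the genes above 1000. The lower quartile was nearly the same, -0.068 in the members and -0.069 in the genes, and the upper quartile was 0.034 in the members and 0.070 in the genes.

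**Figure D1:**
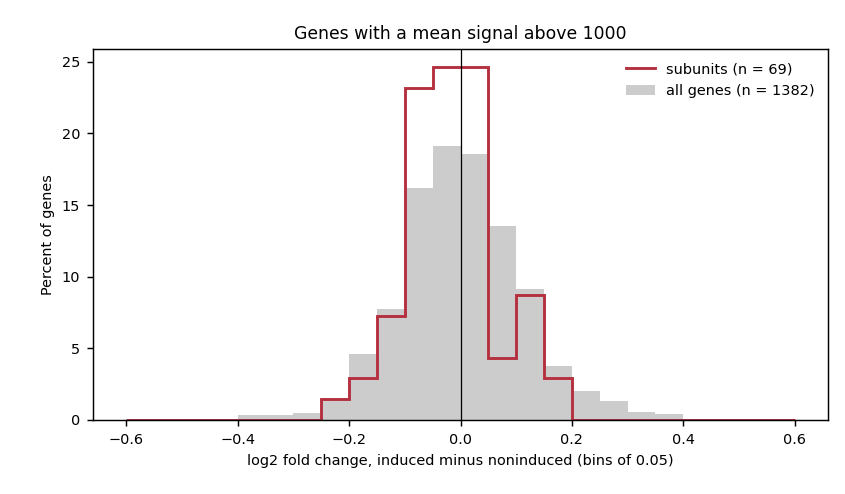
Distribution of the log2 difference (horizontal axis, bins of 0.05) as a percent of genes (vertical axis) for the 69 subunit genes with a mean signal above 1000 (red outline) and for all 1382 genes above 1000 (grey bars). The subunits are narrower, from -0.22 to 0.19, and the gap is widest between 0.05 and 0.10, with 4.35% of subunits and 13.5% of genes.

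By complex, the members, each read from its brightest probe set, lay on both sides of 0. The median log2 difference was -0.028 over the 77 members, with 47 negative, and -0.010 over all probe sets tested, of which 52.6% were negative. Complex I had 17 positive and 17 negative members (median -0.010), complex II 2 and 2 (median 0.001), complex III 1 positive and 8 negative (median -0.059), complex IV 4 and 9 (median -0.037) and complex V 6 and 11 (median -0.027). These directions depended on the scaling. Quantile normalization gave medians from -0.063 in complex III to -0.014 in complex II, negative in all 5 complexes. Centring each array on its median raised all values by about 0.09, turned the members' median to 0.065 with 14 of 77 negative, and raised the median of all probe sets tested to 0.083. On that scale each complex had a positive median, from 0.035 in complex III to 0.094 in complex II. Complexes III, IV and V lay below the median of all probe sets tested under all 3 scalings, while complexes I and II lay close to it or above it on the deposited and the centred scale and below it after quantile normalization.

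**Figure D2:**
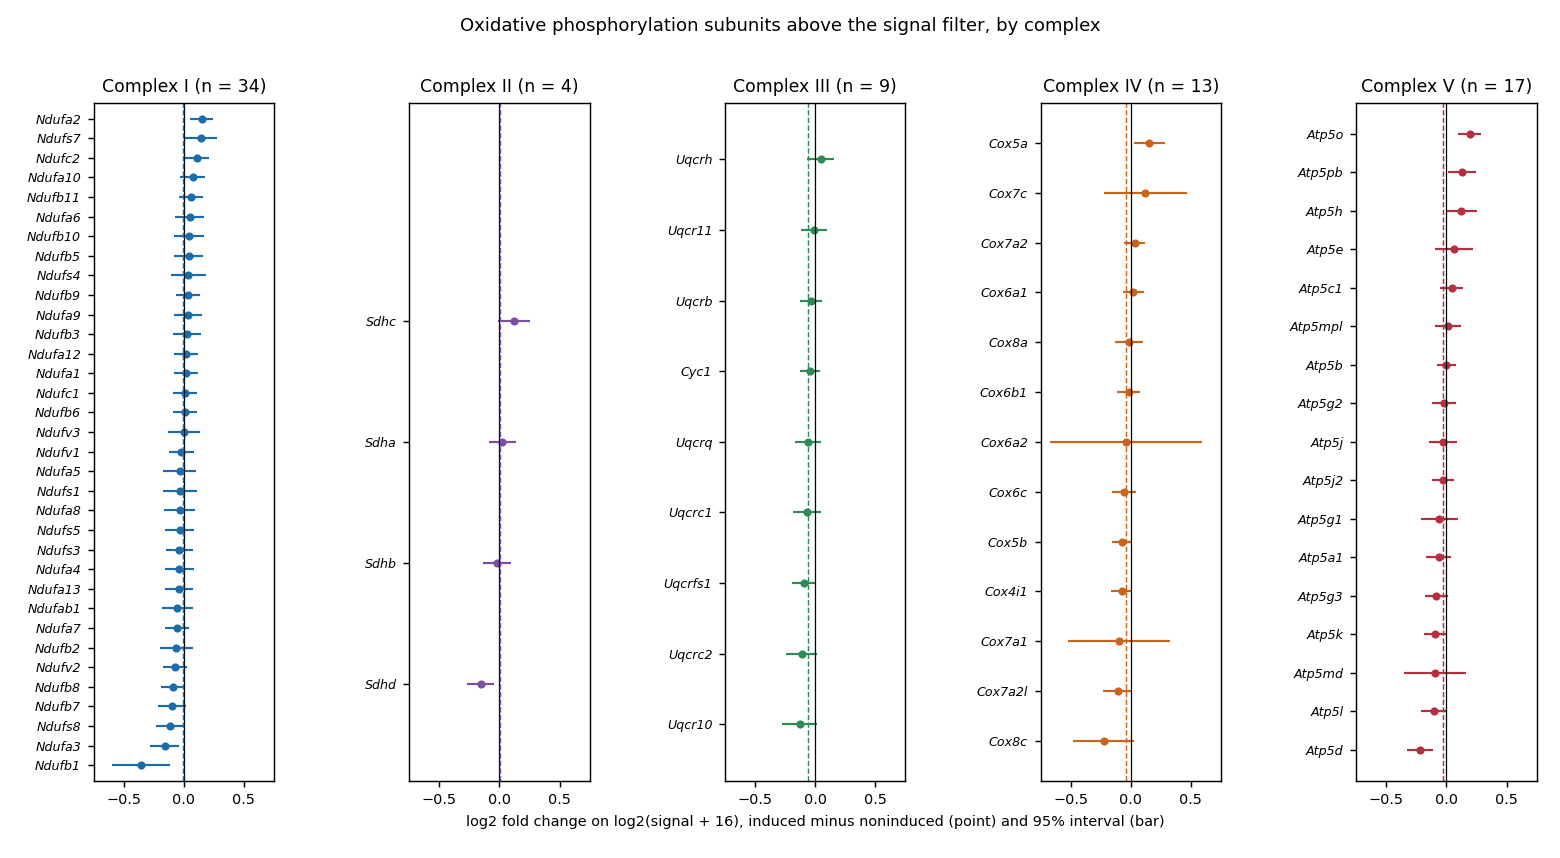
Log2 difference (induced minus noninduced, points) with its 95% interval (bars) for each of the 77 subunit genes above the filter, in 5 panels by complex and sorted within each; the dashed line is the median of the complex. Most intervals cross 0, 8 of the 9 complex III points lie left of 0, and the 3 widest intervals belong to the dim probe sets of Cox6a2, Cox7a1 and Cox7c.

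The medians on single arrays show how far these shifts rest on single samples. For all members, the median deviation from each gene's own mean was 0.038, 0.013 and -0.014 on noninduced arrays 1 to 3 and -0.018, -0.047 and 0.027 on induced arrays 1 to 3. The groups overlapped, because induced array 3 lay above noninduced arrays 2 and 3. In complex III the values were 0.059, 0.037 and 0.014 against -0.052, -0.047 and 0.009 and the groups did not overlap, although noninduced array 3 and induced array 3 lay close together. Complex I gave 0.036, 0.000 and -0.008 against -0.023, -0.003 and 0.038. Complex IV gave 0.052, 0.025 and -0.051 against 0.011, -0.068 and 0.014. Complex V gave 0.027, 0.056 and -0.023 against -0.019, -0.053 and 0.027. In these last 3 complexes the groups overlapped. Induced array 2 was the lowest of the 6 arrays in 30 of the 77 members, and without it the members' median was 0.005. Leaving out 1 array turned the sign of other medians too. The complex IV median was 0.007 without noninduced replicate 2 or induced replicate 2, and the complex V median was 0.005 without induced replicate 2. For complex I it was 0.015, 0.001, 0.011 and 0.007 when noninduced replicate 1, noninduced replicate 2, induced replicate 1 and induced replicate 2 were omitted, and for complex II it was -0.002 and -0.034 when noninduced replicate 2 and induced replicate 3 were. The complex III median was negative in each of these 6 fits. Within the first fluidics run, with induced replicate 1 as its only treated array, the fit gave a median of -0.031 for all members, -0.081 for complex III and 0.003 for complex IV.

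**Figure D3:**
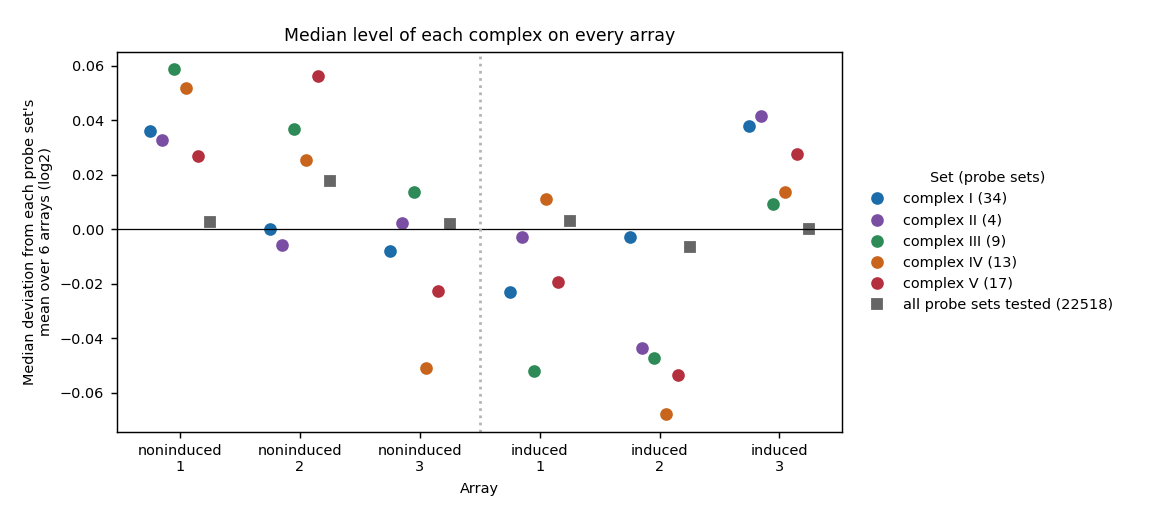
Median deviation of each complex (coloured circles) and of all probe sets tested (grey squares) on each of the 6 arrays, in log2 units relative to each probe set's mean over the arrays; the number of probe sets is in brackets. Complex III (green) is at 0.014 or more on the noninduced arrays and at 0.009 or less on those labelled induced, and the other complexes overlap between the groups.

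Complex V held both members with the smallest p, in opposite directions. Atp5o encodes OSCP, the subunit of the peripheral stalk that holds the catalytic head in place. Its probe set 1416278_a_at gave 4196, 3843 and 3959 on the noninduced arrays and 4464, 4550 and 4694 on those labelled induced. Every array labelled induced was above every noninduced one. The log2 difference was 0.19 (SE 0.045, 95% interval 0.094 to 0.291), the limma adjusted p was 0.104 and the exact two-sided permutation p was 0.1, the smallest that 3 against 3 arrays allow. The dimmer second probe set of Atp5o gave 0.41, with groups that overlapped. After median centring the difference was 0.29 and the limma adjusted p was 0.0419. It was the single member past the threshold under that scaling, which also raised the median of all probe sets tested, and over all alternatives its adjusted p ran from 0.0419 to 0.558.

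Atp5d encodes the delta subunit of the central stalk, the part that turns inside the head. Probe set 1456580_s_at gave 5001, 5184 and 5382 on the noninduced arrays and 4307, 4274 and 4794 on those labelled induced. The groups did not overlap, and induced array 3 was the nearest to the noninduced arrays. The log2 difference was -0.22 (SE 0.051, 95% interval -0.332 to -0.107; limma adjusted p = 0.103), and -0.13 after median centring. Leaving out induced replicate 3 gave -0.27 and an adjusted p of 0.0472 in limma, with a range of 0.0472 to 0.402 over the alternatives. A second, also bright, probe set of Atp5d gave -0.09, and its groups overlapped. The 200 bases before the RefSeq start of each of these genes (assembly GRCm38.p6) are shown because the pair gave the 2 lowest adjusted p-values among the members. The Atp5o stretch is chr16:91931631-91931830 on the minus strand and the Atp5d stretch is chr10:80142075-80142274 on the plus strand, each written 5′ to 3′. Atp5d has a second RefSeq start, whose stretch (chr10:80142115-80142314) overlaps the one shown and also holds no match. Neither holds one of the 4 motifs described further on, which would be in capitals.
Atp5o: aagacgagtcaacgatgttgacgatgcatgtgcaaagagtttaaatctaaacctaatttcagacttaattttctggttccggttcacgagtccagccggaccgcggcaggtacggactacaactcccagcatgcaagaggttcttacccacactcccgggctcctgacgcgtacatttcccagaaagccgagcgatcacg
Atp5d: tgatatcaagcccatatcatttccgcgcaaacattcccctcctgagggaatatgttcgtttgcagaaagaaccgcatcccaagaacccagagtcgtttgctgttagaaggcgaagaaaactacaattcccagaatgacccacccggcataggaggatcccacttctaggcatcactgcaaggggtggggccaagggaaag

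The other parts of the ATP synthase can be read by role. In the peripheral stalk, Atp5pb (subunit b) was at 0.13 (limma adjusted p = 0.286), Atp5h (subunit d) at 0.12 and Atp5j (coupling factor 6) at -0.03, so that 3 of the 4 stalk members were positive in their brightest probe sets, with a median of 0.13. The second bright probe set of Atp5h gave -0.02. Atp5pb gave 5283, 4676 and 5003 against 5566, 5652 and 5152, and noninduced array 1 lay above induced array 3. In the central stalk, Atp5c1 (gamma) was at 0.04 and Atp5e (epsilon) at 0.06, on the other side of 0 from Atp5d. The catalytic head differed little: Atp5b (beta), which makes ATP, gave 7488, 7363 and 7314 against 7587, 7334 and 7241 (log2 difference 0.00, 95% interval -0.081 to 0.081), and Atp5a1 (alpha) was at -0.07. Of the 5 accessory membrane subunits 4 were negative, with a median of -0.09. Atp5l (subunit g, -0.11) and Atp5k (subunit e, -0.09) were in this group, and after median centring its median was 0.00 with 3 of 5 positive. None of these members passed the adjusted test.

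The ring of c subunits, through which protons pass, is encoded by Atp5g1, Atp5g2 and Atp5g3, which make the same mature protein from different precursors. Atp5g1 was at -0.06, Atp5g2 at -0.02 and Atp5g3 at -0.09, and all 3 were positive after median centring (for example 0.01 for Atp5g3). Atp5g3 gave 7993, 8552 and 7722 on the noninduced arrays and 7740, 7613 and 7497 on those labelled induced. Its highest induced array lay above its lowest noninduced one. Atp5g1 gave 3219, 3332 and 3156 against 3174, 2726 and 3466, with induced array 2 the lowest and induced array 3 the highest of the 6. Their upstream sequences are shown because genes for the same protein carry different letters at the start. The stretches of 200 bases before the RefSeq start (GRCm38.p6, all 3 on the minus strand) are chr11:96075632-96075831 for Atp5g1, chr15:102671048-102671247 for Atp5g2 and chr2:73911327-73911526 for Atp5g3. The capitals mark an NRF1 motif in Atp5g2, a palindrome found on both strands, and an ERR motif on the opposite strand in Atp5g3, and Atp5g1 has none of the 4 motifs in this stretch.
Atp5g1: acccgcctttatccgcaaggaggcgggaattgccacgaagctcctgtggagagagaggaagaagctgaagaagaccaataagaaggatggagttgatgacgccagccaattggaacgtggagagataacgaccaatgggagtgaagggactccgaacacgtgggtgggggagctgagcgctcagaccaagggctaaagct
Atp5g2: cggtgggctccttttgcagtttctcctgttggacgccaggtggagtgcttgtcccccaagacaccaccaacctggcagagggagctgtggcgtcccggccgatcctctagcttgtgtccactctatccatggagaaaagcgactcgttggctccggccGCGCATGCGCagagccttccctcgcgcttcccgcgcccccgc
Atp5g3: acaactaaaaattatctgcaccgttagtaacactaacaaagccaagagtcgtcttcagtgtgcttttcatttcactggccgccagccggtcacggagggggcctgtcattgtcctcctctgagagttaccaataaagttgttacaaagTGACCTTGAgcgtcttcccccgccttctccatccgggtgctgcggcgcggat

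Complex I takes electrons from NADH through a flavin and a chain of iron-sulphur clusters. Of its nuclear core subunits 6 were tested and 5 were negative in their brightest probe sets. The median of the 6 was -0.035, which became 0.058 with 5 positive after median centring. Ndufv1, which binds the flavin and NADH, was at -0.02, and the iron-sulphur subunits Ndufv2 and Ndufs1 were at -0.08 and -0.03. The 3 probe sets of Ndufv1 ran from -0.06 to 0.08 and the 3 of Ndufv2 from -0.08 to 0.15. Ndufs3 was at -0.04. Ndufs7, which carries the last cluster before coenzyme Q, gave 1452, 1674 and 1664 on the noninduced arrays and 1716, 1728 and 1843 on those labelled induced. The groups did not overlap, and noninduced array 1 was well below the rest (log2 difference 0.14, SE 0.062, limma adjusted p = 0.313). The second probe set of Ndufs7 gave 0.01. Ndufs8, another iron-sulphur subunit, was at -0.12 (limma adjusted p = 0.324), and its 6 probe sets ran from -0.27 to 0.05.

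The accessory subunits of complex I surround the core and are needed for its assembly and stability. Of these 28 were tested, 16 positive and 12 negative, with a median of 0.011. Ndufa2 gave 2358, 2326 and 2245 on the noninduced arrays and 2557, 2606 and 2516 on those labelled induced. Its groups did not overlap, and it had a single probe set (log2 difference 0.15, SE 0.044, limma adjusted p = 0.167). Ndufc2 gave 2550, 2466 and 2340 against 2632, 2657 and 2642, also without overlap (0.11, limma adjusted p = 0.307). Other bright probe sets of Ndufc2 gave 0.02 and 0.09, with groups that overlapped. Ndufa3 gave 1977, 1775 and 1846 against 1717, 1691 and 1596, and here the arrays labelled induced were the lower ones (-0.16, limma adjusted p = 0.216). Its second bright probe set gave -0.09, also with groups that did not overlap. Ndufb1 had the widest difference of any tested member, from a dim probe set. It gave 160.1, 204.8 and 175.5 against 132.2, 149.7 and 128.4, a log2 difference of -0.36 (SE 0.109, limma adjusted p = 0.178).

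Other accessory members of known role showed smaller values. Ndufab1, the mitochondrial acyl carrier protein, was at -0.05, and Ndufa13, also known as GRIM-19, was at -0.04. Ndufs4, whose loss is used to model Leigh syndrome in mice, was at 0.04. Ndufa9 and Ndufa10 were at 0.03 and 0.07. Ndufb9 gave 3964, 4169 and 3802 against 4092, 4019 and 4125 (0.04), and its groups overlapped. A second bright probe set of Ndufb9 gave -0.07, with groups that did not overlap. Ndufa4, whose protein has been reassigned to complex IV, was at -0.04, and counting it there gave medians of 0.001 for complex I and -0.037 for complex IV. Ndufa4l2, its hypoxia-inducible relative, lay below the filter, at 8.68, 8.01 and 5.37 on the noninduced arrays and 4.79, 33.4 and 13.3 on those labelled induced.

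A shared probe set of the Ndufa11 gene lay outside the member rule because the platform also assigns it to Ndufa11b. It was singled out after its values were seen. It gave 1306, 1385 and 1268 against 1085, 1077 and 1119, a log2 difference of -0.27 (limma adjusted p = 0.0695), and its groups did not overlap. Of the 10 probe sets that named a member or such a subunit together with another gene, the brighter one shared by Ndufb4 and its copies gave 0.06, while the single-gene probe set that represents Ndufb4 lay below the filter. Transcripts of near-identical copies cannot be separated by these probe sets.

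Complex II, succinate dehydrogenase, also belongs to the citric acid cycle, and all 4 subunits are nuclear. Sdha, which binds the flavin and oxidises succinate, was at 0.02 and Sdhb, the iron-sulphur subunit, at -0.02 (0.07 after median centring). The membrane anchors had unlike signs in their brightest probe sets. Sdhc gave 1578, 1350 and 1463 on the noninduced arrays and 1652, 1572 and 1554 on those labelled induced, with overlap (0.12, limma adjusted p = 0.380). Sdhd gave 1311, 1349 and 1329 against 1139, 1206 and 1229, without overlap (-0.16, SE 0.052, limma adjusted p = 0.203). The dimmer probe sets had the opposite signs, -0.22 for Sdhc and 0.29 for Sdhd. The means over both probe sets were -0.05 and 0.07, so the sign of each anchor depended on the probe set.

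Complex III passes electrons from coenzyme Q to cytochrome c. Its 4 redox and core proteins were all negative in their brightest probe sets, with a median of -0.08, and after median centring 2 were positive and 2 negative. Uqcrfs1, the Rieske iron-sulphur protein, gave 2615, 2592 and 2618 on the noninduced arrays and 2356, 2460 and 2513 on those labelled induced. The groups did not overlap, and the noninduced arrays lay close together (-0.09, SE 0.044, limma adjusted p = 0.354). Cyc1, cytochrome c1, gave 4898, 4969 and 4891 against 4735, 4785 and 4784, also without overlap, and the difference was only -0.04 (limma adjusted p = 0.621). Uqcrc2 and Uqcrc1, the core proteins, were at -0.11 and -0.07, with groups that overlapped, and a second bright probe set of Uqcrc2 gave 0.13.

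Of the 5 small subunits of complex III 4 were negative in their brightest probe sets (median -0.04, and 0.06 after median centring with 4 positive). Uqcr10 gave 2075, 2267 and 1920 against 1851, 1823 and 2047 (-0.13, limma adjusted p = 0.396). The 3 probe sets of Uqcr10 ran from -0.13 to 0.01, and the 3 of Uqcrq from -0.10 to -0.06. Uqcrh, the hinge protein next to cytochrome c1, was the one positive member at 0.05. Uqcrb gave 7092, 7418 and 7072 against 7141, 6686 and 7220 (-0.04), and the groups overlapped, with induced array 2 the lowest. A second bright probe set of Uqcrb gave 0.01. Leaving out 1 array kept the complex III median between -0.062 and -0.038, and no member of this complex reached an unadjusted p under 0.05.

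Complex IV, cytochrome c oxidase, has subunits with tissue-specific isoforms. The 9 ubiquitous or single-isoform subunits had 4 positive and 5 negative members (median -0.01), and all 9 were positive after median centring. Cox5a gave 4697, 4366 and 4597 on the noninduced arrays and 5399, 5239 and 4601 on those labelled induced. Induced array 3 lay within the noninduced range (0.15, SE 0.058, limma adjusted p = 0.256), and the 3 probe sets of Cox5a ran from -0.02 to 0.15. Cox4i1, the regulatory subunit of most tissues, gave 4681, 4649 and 4741 against 4348, 4411 and 4590 without overlap (-0.08, limma adjusted p = 0.405). Cox5b was at -0.07, also without overlap, but its 5 probe sets ran from -0.33 to 0.13. Cox6a1 gave 6627, 6816 and 6402 against 6774, 6644 and 6727 (0.02), with overlap. Cox7a2, Cox8a and Cox6b1 were at 0.03, -0.01 and -0.02.

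The isoform partners were dim in these myoblasts. Cox7a1 and Cox6a2 are the heart and skeletal muscle isoforms. Cox7a1 gave 40.8, 47.4 and 29.4 against 41.2, 37.3 and 27.9 (-0.10), and Cox6a2 gave 30.5, 43.2 and 16.9 against 47.2, 14.4 and 27.6 (-0.04, 95% interval -0.670 to 0.596). The groups overlapped in both. Cox8b, the muscle isoform of subunit 8, lay below the filter on all arrays, at 2.95 to 14.9. Cox8c, a testis isoform, gave 109.1, 97.6 and 109.4 against 96.8, 82.3 and 84.4 (-0.23, limma adjusted p = 0.392), and its groups did not overlap. Cox4i2, Cox6b2 and Cox7b2 lay below the filter. Cox7a2l, which joins complexes III and IV into supercomplexes, was at -0.11 (limma adjusted p = 0.377), and its 3 probe sets ran from -0.11 to 0.03. No isoform pair had a member past the test.

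**Figure D4:**
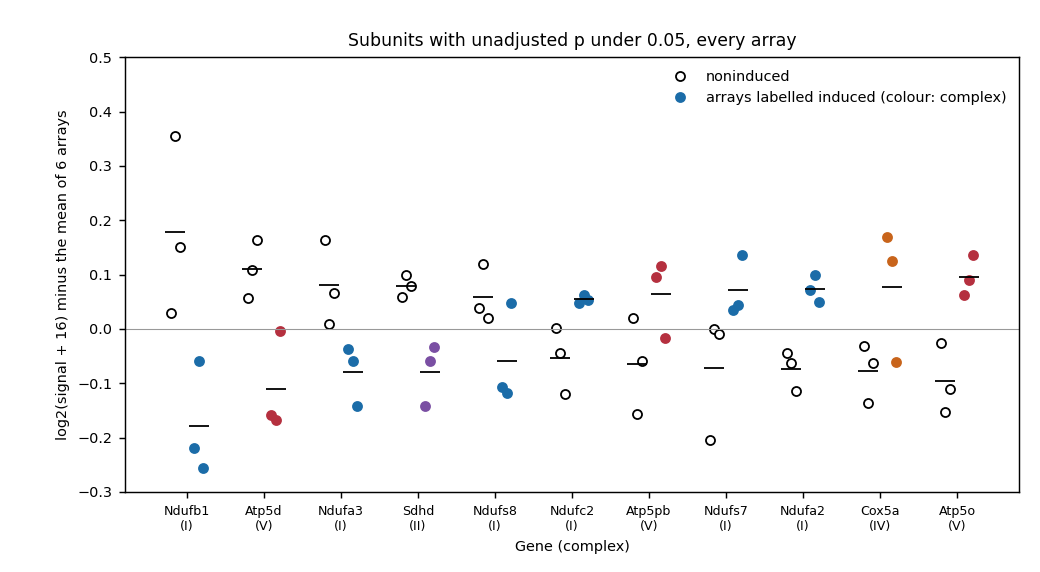
Level of the 11 subunit genes with an unadjusted p under 0.05 on each array, as log2 of signal + 16 minus the mean of the 6 arrays, for noninduced arrays (open circles) and arrays labelled induced (filled, coloured by complex); short lines are group means. The genes were chosen by p on these same arrays, which favours groups that do not overlap, so their separation adds no support. In 8 of the 11 genes the 3 open and 3 filled circles do not overlap, and Ndufs8, Atp5pb and Cox5a have 1 filled circle among the open ones.

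Different probe sets of 1 gene gave a second reading of the same transcript from the same arrays. Of the 170 single-gene probe sets of members 151 lay above the filter, and 0 of them passed the adjusted test. At an unadjusted p under 0.05, 11 of the 151 were higher and 12 lower. These shares are close to the 7.43% and 7.26% of all probe sets tested. In 47 genes 2 or more probe sets lay above the filter, and in 25 of these they had the same sign. The median range between the lowest and highest probe set of a gene was 0.13, while the median absolute log2 difference of the 77 members was 0.056. Among the 30 genes with several probe sets above 1000 the signs were the same in 18 and the median range was 0.10. Of the 83 representing probe sets 13 had the suffix _s_at and 4 _x_at, which Affymetrix uses where probes match other transcripts too, and those of Atp5d, Ndufa2, Ndufc2 and Atp5pb were among the former and those of Ndufa3 and Ndufs8 among the latter.

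**Figure D5:**
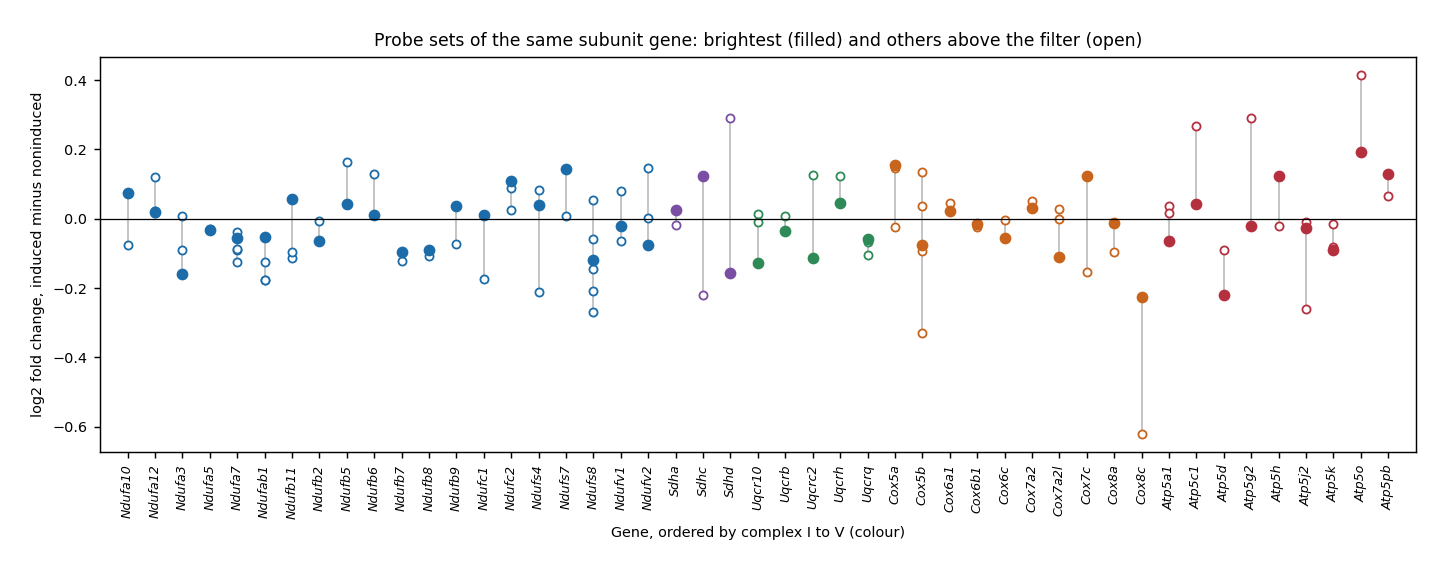
Log2 difference (vertical axis) of every single-gene probe set above the filter for the 47 subunit genes that have several, ordered by complex; filled circles are the brightest probe set and open circles the others, joined by a grey line. In 25 genes all circles lie on the same side of 0, and Sdhd, Cox5b and Ndufs8 are among those that cross it.

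Genes that build, feed or regulate the complexes gave no call past the adjusted test in any list. For the assembly factors of complex I (15 tested, median 0.00), Ndufaf2 was at 0.25 and Nubpl, which delivers iron-sulphur clusters, at 0.21. Of the 4 complex II factors 3 were negative (median -0.08, and 0.01 after median centring), with Sdhaf2, which helps to attach the flavin, at -0.23 and Sdhaf3 at 0.18. In complex III (5 tested, median -0.06, and 0.04 after median centring), Ttc19 gave 198.3, 238.3 and 169.9 against 169.8, 136.6 and 158.7 (-0.34, limma adjusted p = 0.234), and Uqcc3 was at -0.25. In complex IV (19 tested, median 0.04), Cox17, the copper chaperone, gave 1749, 1807 and 1577 against 1887, 2036 and 2119 without overlap (0.23, limma adjusted p = 0.133). Lrpprc, which stabilises mitochondrial messenger RNA, was at 0.25 and Cox19 at -0.20. In complex V (4 tested, median 0.02) the factors for the catalytic head stood apart, Atpaf2 at -0.32 (limma adjusted p = 0.191) and Atpaf1 at 0.17, both without overlap.

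The electron carriers and the cycle that feeds them were also mixed. Of 18 genes for coenzyme Q synthesis, cytochrome c and other electron entry 10 were positive (median 0.02). Coq8a, a kinase-like protein of coenzyme Q synthesis, had the largest value, 0.67, from signals of 6.29 to 47.1, and Coq10a, which binds coenzyme Q, was at 0.24 with overlap. Cycs, cytochrome c, was at 0.17 with overlap (limma adjusted p = 0.237). ND5, the mitochondrially encoded complex I subunit with a probe set here, gave 2405, 2678 and 2460 against 2944, 2688 and 2871 without overlap (0.17, SE 0.054, limma adjusted p = 0.189). Of 13 citric acid cycle genes 9 were positive (median 0.06), with Dld at 0.14, while Suclg1 gave 878, 917 and 918 against 746, 772 and 806 (-0.22, limma adjusted p = 0.123). The ADP/ATP carriers Slc25a4 and Slc25a5, which exchange the product of complex V for its substrate, were at -0.02 each (0.07 each after median centring) and the phosphate carrier Slc25a3 at 0.01. Atpif1, the inhibitor of complex V listed with them, was at 0.05.

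Among regulators of mitochondrial gene expression (12 tested, median 0.02), Tfb2m, a mitochondrial transcription factor, gave 850.1, 748 and 811 against 683, 711 and 569 (-0.29, limma adjusted p = 0.153). Its groups did not overlap. Yy1, a factor that binds promoters of respiratory genes, was at 0.15, also without overlap (limma adjusted p = 0.227). Nrf1, Gabpa, Esrra and Tfam were at -0.08, 0.02, 0.05 and -0.05. Ppargc1a, the coactivator of mitochondrial biogenesis, lay below the filter, at 6.38, 6.63 and 2.33 against 21.2, 12.9 and 15.8. Of the 76 mitochondrial ribosomal protein genes tested 52 were negative (68.4%, median -0.04), and 22 were negative after median centring (median 0.05).

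The promoters of the members were searched for motifs of such regulators. RefSeq windows of 300 bases (250 before to 50 after the start, GRCm38.p6) were found for 67 of the 83 members, 72 windows in all. The letters searched on both strands were GCGCATGCG for NRF1, CCGGAAGT for GABP and other ETS factors, TCAAGGTCA for ERR and AAGATGGCG for YY1, and matches of different motifs overlapped in 0 of the 72 windows. The NRF1 letters were in 9.72% of member windows, 1.75% of all 32851 windows and 2.35% of windows of protein-coding genes. The YY1 letters were in 8.33%, 1.40% and 1.83%, the GABP letters in 6.94%, 3.89% and 5.15%, and the ERR letters in 2.78%, 0.423% and 0.334%. The member shares rest on few windows, 7 for NRF1, 6 for YY1, 5 for GABP and 2 for ERR. Member windows also had more G and C, with a median of 58.5% against 52.7% over all windows and 56.3% over those of protein-coding genes. Among the 11 members with an unadjusted p under 0.05, a match was found for Ndufs7 (YY1) and Sdhd (ERR), and the windows of the other matched genes held none of these letters.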

How the data were processed

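Total RNA of 6 C2C12 cultures was labelled with biotin and hybridised to 1 mouse array each, per the labels' protocols. The authors deposited 1 linear intensity for each probe set and array, which the submitters' processing notes credit to GCOS 1.1.1. Its settings are not stated in the sources used here, and no detection calls were used. Each array had a mean of 150.0 once 2% of values were trimmed from both ends, so intensities are relative to the array total and a shift shared by most genes is invisible. The deposited instrument records (unit other) gave the hybridisation times, from which the fluidics run was inferred, and no expression values.

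Titles gave the groups. After 64 control probe sets were set aside, 45037 remained: 34945 with 1 gene in the platform annotation, 932 with several and 9160 not listed. Values were taken to log2(signal + 16), which understates differences of dim probe sets. The 22518 probe sets whose mean signal exceeded the overall median (23.4) entered limma 3.58.1 (R 4.3.3), with trended eBayes moderation and Benjamini-Hochberg adjustment over all of them at a threshold of 0.05. Single values were also compared with exact two-sided permutation tests. P-values measure the spread between the 3 samples of a group. Lists were described by counts and medians, without a set test. The steps were tested on simulated data. The members, lists and motifs were chosen with earlier results of these data known.

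The members named by rule are those with an unadjusted p under 0.05, the highest, lowest and brightest member of each complex, the nuclear core of complex I, the Sdh genes, the isoform families, members whose probe sets differ in sign (examples are given), and for each list the members of largest difference. Others are named to show a role. The alternatives changed the scaling (quantile normalization or median centring), the filter (none, or the 75th percentile), the pseudocount (1 or 64) and the moderation (untrended or robust). Others were a block for the replicate number, a block for the fluidics run, its first run alone, each array left out in turn, averaged probe sets per gene, and Ndufa4 counted with complex IV. Promoters came from RefSeq (GRCm38.p6).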

Additional observations from a re-analysis of the deposited data

How the results depend on the processing

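Over 19 alternatives, 120 of 131 checks of counts and medians moved by less than 1.5 times (counts) or less than 1 SD between arrays (medians). Most of the medians are smaller than that SD, so a median could change sign and still pass. In complex IV the SD between arrays within a group was 0.050. Its median was -0.037 on all arrays and up to 0.007 with 1 array left out. Of 359 checks of single members, 356 changed neither their side of the threshold nor, where the unadjusted p was under 0.05, their sign. No member passed the threshold in the main fit, so a change of side required a new call. Signs of the other members were not part of this check. That of Sdhb, for example, turned in 2 of 18 alternatives. Median centring gave 1 member past the adjusted threshold (Atp5o, log2 difference 0.29, limma adjusted p = 0.0419) and medians of 0.065 for all members and 0.083, 0.094, 0.035, 0.056 and 0.067 for complexes I to V, through the constant it adds to every probe set. Leaving out 1 array gave 0 to 1 members past the threshold (the 1 was Atp5d without induced replicate 3), a median of -0.047 to 0.0053 for all members (0.0053 without induced replicate 2) and of -0.034 to 0.035 for the 4 genes of complex II. The counts at an unadjusted p under 0.05 ran from 1 (no variance trend) to 15 (median centring) for higher and from 1 (median centring) to 16 (without induced replicate 3) for lower members. Shares over all probe sets under these settings are not given. The sign of Sdhd turned with the mean of its probe sets (0.07), which differ in sign. With the fluidics run as a block, 0 members passed and the median was -0.031 and only induced replicate 1 carries that comparison. With the replicate number as a block, 0 members passed and the median was -0.028. Once each probe set's mean level was removed, the correlations of same-numbered arrays were 0.012, -0.063 and -0.009, so the numbers were not taken as pairs. The dim probe sets of Cox6a2, Cox7a1 and Cox7c have intervals too wide to show differences of the size seen elsewhere.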
